A study of Mus musculus with 4 samples.

Results

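The genes of the interferon response and of antigen presentation by class I molecules of the major histocompatibility complex (MHC) were examined in cultured neural precursor cells of the mouse telencephalon. The list held 39 genes, chosen by name for what they do, with earlier results of these data known. Of these, 10 act in sensing and signalling, 20 are antiviral effectors and 9 belong to class I presentation. A gene was measured where the array annotation named it as the only gene of a probe set, a group of short probes for 1 transcript, and its brightest such probe set stood for it. Of the 39 genes, 37 had a probe set of their own, out of 18193 such genes on the array, and 30 of the 37 passed a filter on low signal that left 12952 genes. Isg15 and Ifi44 had no probe set named for them alone.

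The study measured total RNA on 4 arrays, with ICR mice as the source of all cells. Neuroepithelial cells from embryonic day 11.5 (E11.5) telencephalon grown for 1 day gave 2 arrays, and cells from embryonic day 14.5 (E14.5) telencephalon grown for 4 days gave the other 2. Both ages were kept in the same serum-free N2 medium with basic FGF, on dishes coated with poly-L-ornithine and fibronectin, and the series title gives its purpose as finding genes that restrict astrocyte differentiation. The age of the embryo and the time in culture differ together between the groups, so they cannot be told apart. The labels do not say whether the arrays of an age came from separate cultures or animals, so every p-value reflects no more than the spread of these arrays, which could be technical.

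Cells that sense viral nucleic acid, for example through the RNA sensors encoded by Ifih1 and Dhx58, activate interferon regulatory factors and secrete type I interferon. Its receptor signals through the kinases Jak1 and Tyk2 to a complex that holds Stat2 and Irf9 and binds interferon-stimulated response elements in the promoters of antiviral genes and of the genes that load peptides onto class I molecules. Developing neural cells are known for low class I levels.

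The promoters of the members are shown first because this element is what many of them share in sequence. Promoter windows from RefSeq, build GRCm38.p6, reach from 250 bases before to 50 bases after the annotated start, and 31 of the 39 members matched a window. The core of the element was searched on both strands as GAAA, any 2 bases and GAAA again, which reads TTTC, any 2 bases and TTTC on the other strand. It was present in the window of 13 of the 31 members (41.9%), against 1079 of 27025 genes (3.99%), or 3.44% of all 32851 windows. The 13 were Ifih1, Irf2, Stat2, Ifit1, Ifit3, Isg15, Oas1a, Rsad2, Bst2, Ifitm2, Ifitm3, Gbp2 and B2m. The motif of STAT dimers, searched as TTCNNNGAA, which reads the same on both strands, was present in 8 of the 31 (25.8%) against 9.55% of genes. The core was present in 3 of the 7 windows of members 2-fold higher on E11.5 replicate 1, described below, in 3 of the 7 of members lower at E14.5, and in 9 of the 25 of all members tested. Oasl2 had a window without a match, and Usp18 and Rtp4 had no window. The list was chosen by name for genes of the interferon response, so its shares above those of all genes only describe that choice. Neither a match nor its absence says whether a factor binds there. The 150 bases before the start are given for 5 members with a match and a higher signal on E11.5 replicate 1 than replicate 2. Of these, Ifit1 was below the filter and not tested. Sequences run 5′ to 3′ on the strand of the gene, with each match to this core on either strand in capitals. In Bst2 and Oas1a, matches overlap and run together. The windows are chr8:71537473-71537622 (minus strand) for Bst2, chr12:26456453-26456602 (minus) for Rsad2, chr2:122147537-122147686 (plus) for B2m, chr5:120907526-120907675 (minus) for Oas1a and chr19:34640739-34640888 (plus) for Ifit1.
Bst2: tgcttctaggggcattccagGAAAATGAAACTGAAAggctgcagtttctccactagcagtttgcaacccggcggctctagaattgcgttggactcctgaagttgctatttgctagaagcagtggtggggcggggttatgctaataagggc
Rsad2: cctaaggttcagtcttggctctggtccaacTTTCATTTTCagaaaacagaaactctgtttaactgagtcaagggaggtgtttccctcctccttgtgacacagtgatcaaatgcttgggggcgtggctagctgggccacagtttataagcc
B2m: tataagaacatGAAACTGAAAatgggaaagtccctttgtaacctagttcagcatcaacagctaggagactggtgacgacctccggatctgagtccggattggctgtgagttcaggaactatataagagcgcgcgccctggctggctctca
Oas1a: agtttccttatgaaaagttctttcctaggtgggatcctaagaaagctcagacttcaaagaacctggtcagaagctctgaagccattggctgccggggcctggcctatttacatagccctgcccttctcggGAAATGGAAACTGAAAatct
Ifit1: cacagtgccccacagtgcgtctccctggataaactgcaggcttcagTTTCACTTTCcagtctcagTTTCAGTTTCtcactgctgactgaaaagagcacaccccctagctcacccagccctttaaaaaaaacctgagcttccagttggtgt

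The 2 arrays of an age resembled each other more than the arrays of the other age: Pearson's r over log2 signals was 0.975 within E11.5, 0.969 within E14.5 and 0.885 to 0.909 between the ages. The arrays were multiplied by factors of 0.691 to 1.68 to a common trimmed mean, and signals below are these scaled intensities, which compare 1 probe set between arrays and not different genes. All 6 neural precursor markers (Nes, Sox2, Vim, Pax6, Fabp7 and Hes5) passed the filter. Their summed signal, mainly that of Fabp7 and Vim, ran from 18121 to 19819 at E11.5 and from 26653 to 28411 at E14.5. The markers did not move together in the test described below. Hes5 (log2 difference 1.81), Sox2 (0.60) and Fabp7 (0.59) were higher at E14.5, Pax6 (-0.83) was lower, and Nes and Vim had no call.

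The members were brighter on 1 of the E11.5 arrays than on the other. Of the 30 that passed the filter, 30 had a higher signal on E11.5 replicate 1 than on E11.5 replicate 2, which was so for 54.6% of all genes tested. The median gap of the members was 0.74 on the log2 scale (log2 of the signal plus a pseudocount of 12.8, which understates the gaps of dim genes), against 0.03 over all genes. Only 1% of all genes had a gap above 0.94. At least 2-fold apart on this scale were 8 of the 30 members, all with replicate 1 higher, against a background of 0.811% of all genes tested, and no member was 2-fold apart the other way (background 0.842%). These 8 were the effectors Oasl2, Rsad2, Bst2 and Ifi35, the regulators Irf7 and Usp18, and the class I genes B2m and H2-D1, and among all 12952 genes ranked by this gap they stood between place 17 (Oasl2) and place 89 (Ifi35). With 1 array on either side, a gap between arrays of 1 age has no test. The list was chosen with earlier results of these data known, so these counts only describe it.

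The gap was visible before any scaling. As deposited, E11.5 replicate 2 was the brighter array, with a trimmed mean of 252 against 187, and 10.4% of all genes had the higher deposited intensity on replicate 1. Of the 30 members, 22 did. After scaling, the summed signal of the 37 members with a probe set was 13826 on E11.5 replicate 1 and 7907 on E11.5 replicate 2. It was 7540 and 7059 on the E14.5 arrays. The E11.5 replicate 2 sum therefore lay nearer to both E14.5 sums than to that of its own age. These sums rest mainly on the bright probe sets of Ifitm3, H2-K1, B2m, Rtp4 and H2-D1. On E11.5 replicate 2, B2m and H2-D1 were below both E14.5 arrays, and Ifitm3, H2-K1 and Rtp4 were above both. This sum adds members of opposite position: E11.5 replicate 2 was above both E14.5 arrays for 12 of the 30 members (38% of all genes) and below both for 12 (44%). E11.5 replicate 1 was the highest of the 4 arrays for 21 of the 30 (24.8% of all genes).

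**Figure D1:**
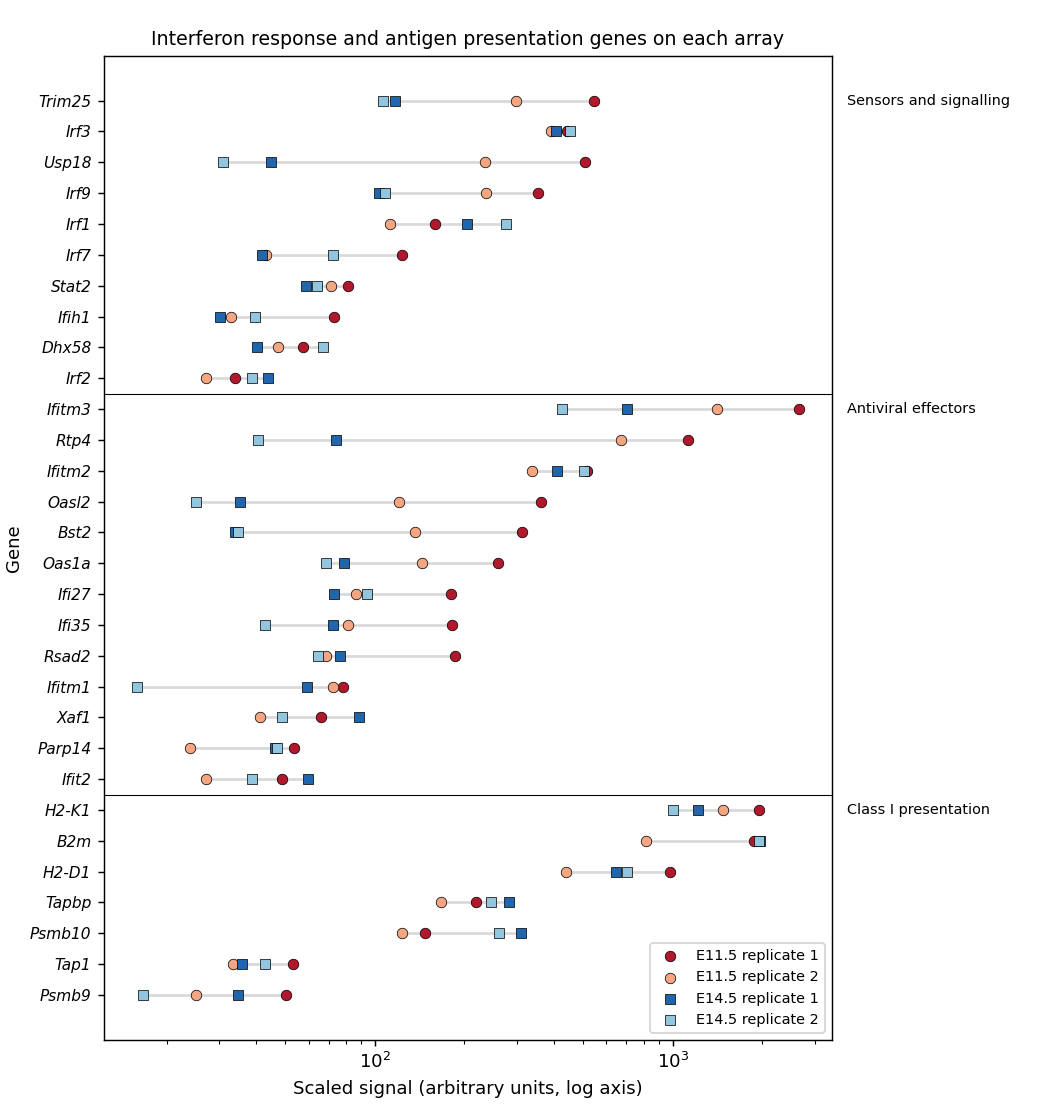
Scaled signal (log axis) of the 30 members that passed the filter on each of the 4 arrays, ordered by role; points are single arrays, with no averaging. The E11.5 replicate 1 point lies right of the E11.5 replicate 2 point for all 30, and it is the highest of the 4 for 21.

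The E14.5 arrays did not part in this way. Of the 30 members, 17 were higher on E14.5 replicate 1, with a median gap of 0.13, and 1 member, Ifitm1, was at least 2-fold apart, against a background of 1.54% of genes with replicate 1 higher and 1.51% with replicate 2 higher. Another 19 probe sets, of 11 members, passed the filter and were not used to represent a gene: 17 of the 19 were higher on E11.5 replicate 1, and 6 were at least 2-fold higher there. With the probe sets of a gene averaged, 7 members were 2-fold higher on that array, 6 of the 8 above without Rsad2 (0.88) and Ifi35 (0.65), and Ifi27 (1.49). Probe sets of 1 gene share its transcripts and are no independent measurements.

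**Figure D2:**
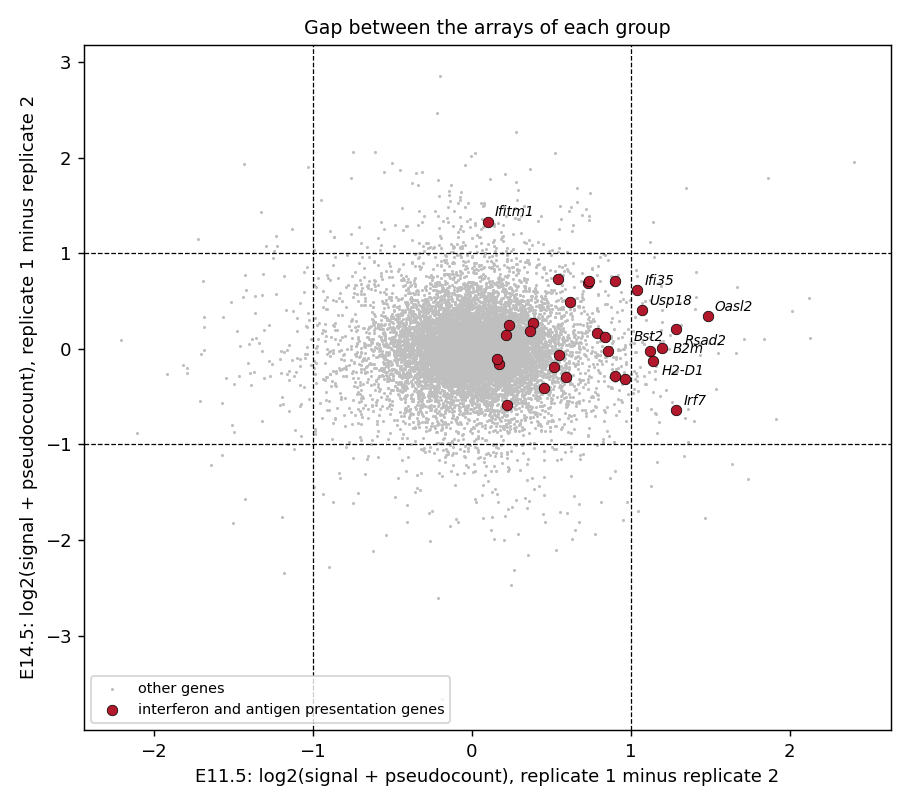
Gap between the E11.5 arrays (x axis) and between the E14.5 arrays (y axis) for each member that passed the filter, over all 12952 genes, both as replicate 1 minus replicate 2 in log2 (scaled signal + 12.8); dashed lines mark 2-fold. The 30 members lie right of 0 on the x axis, 8 of them beyond 2-fold, and spread around 0 on the y axis.

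Compared between the ages, 9 of the 30 members were lower at E14.5 (background 13.6% of all genes, limma fit over all probe sets with Benjamini-Hochberg adjustment at 0.05) and 2 were higher (background 14.3%). The median difference, E14.5 minus E11.5, was -0.37 on the log2 scale over the members and 0.03 over all genes. For 17 of the 30 members the arrays of the 2 ages did not overlap, against 65.6% of all genes. The median difference was -0.95 over the 13 effectors tested, -0.31 over the 10 sensing and signalling genes and 0.03 over the 7 class I genes. Lower were 5 of the 13 effectors, 3 of the 10 signalling genes and 1 of the 7 class I genes, and no difference between the roles was tested.

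Among the sensing and signalling genes, Usp18 fell furthest. It encodes a protease that removes Isg15 from proteins and restrains signalling at the type I interferon receptor. Its signal was 509 and 235 at E11.5 (replicate 1 first, here and below) against 45.0 and 30.9 at E14.5, a difference of -2.84 ± 0.32 (SE, n = 2 arrays a group; adjusted p = 0.000189, limma). The E11.5 arrays were 2.16-fold apart, yet the lower of them was well above both E14.5 arrays. Trim25, a ubiquitin ligase that acts in RNA sensing by RIG-I, had signals of 543 and 298 at E11.5 and 117 and 106 at E14.5 (-1.74 ± 0.25, adjusted p = 0.000821, limma). All 3 of its probe sets were lower at E14.5 (-1.74, -1.80 and -1.17), and on the third the E11.5 arrays read the same, 75.3 and 75.3. Irf9, the DNA-binding partner of Stat2, read 353 and 237 at E11.5 and 103 and 108 at E14.5 (-1.35 ± 0.22, adjusted p = 0.00144, limma). In each of these 3 genes the groups did not overlap.

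Irf1, a transcription factor that interferon gamma induces and that activates class I genes, was the 1 gene of this role that was higher at E14.5. It read 159 and 113 at E11.5 and 205 and 277 at E14.5 (0.77 ± 0.22, adjusted p = 0.0312, limma), with no overlap. Irf7, the factor that amplifies type I interferon production, had the widest E11.5 gap of this role. Its signal was 124 on E11.5 replicate 1, 43.1 on E11.5 replicate 2, and 41.9 and 72.4 at E14.5, so that 1 array stood above the other 3. The difference between the ages did not pass the test (-0.35 ± 0.41, adjusted p = 0.591, limma). Ifih1, the sensor of long double-stranded RNA, showed the same order with 72.7 on E11.5 replicate 1 and 33.0, 30.2 and 39.8 on the other arrays (-0.40 ± 0.36, adjusted p = 0.491, limma). Irf3, the factor activated first after sensing, differed little between arrays, with 443 and 392 at E11.5 and 406 and 454 at E14.5. Dhx58, Irf2 and Stat2 also did not pass the test, and their E11.5 signals were under 2-fold apart.

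The largest difference of all members was that of an effector, Rtp4, a receptor transporter protein that interferon induces. It read 1127 and 670.2 at E11.5 against 74.2 and 40.4 at E14.5, a difference of -3.70 ± 0.28 (adjusted p = 1.5e-05, limma). Here the gap between the ages exceeded that within E11.5: replicate 2 alone was 11.7-fold above the E14.5 mean, while the E11.5 arrays were 1.68-fold apart. Oasl2, a relative of the 2'-5' oligoadenylate synthetases that carries ubiquitin-like domains, read 361 and 121 at E11.5 and 35.2 and 25.2 at E14.5 (-2.39 ± 0.41, adjusted p = 0.00211, limma). With a ratio of 2.99 between the E11.5 arrays it had the widest gap on that side of all members tested, and still its lower E11.5 value exceeded both E14.5 values. Bst2, or tetherin, which holds budding virus particles at the cell surface, read 312 and 136 at E11.5 and 33.9 and 34.8 at E14.5 (-2.22 ± 0.34, adjusted p = 0.00101, limma). Its E11.5 arrays were 2.29-fold apart, and both stood above the E14.5 arrays, which were alike.

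Ifitm3, a membrane protein that blocks virus entry from endosomes, read 2656 and 1415 at E11.5 and 706 and 425 at E14.5 (-1.80 ± 0.29, adjusted p = 0.00139, limma). Oas1a, an oligoadenylate synthetase of the pathway that activates RNase L, read 258 and 144 at E11.5 and 79.0 and 68.8 at E14.5 (-1.25 ± 0.27, adjusted p = 0.0074, limma). For both genes the ages did not overlap, and the E11.5 arrays were 1.88-fold and 1.80-fold apart. The neighbours of Ifitm3 in its gene family did not share the call. Ifitm2 read 515 and 336 at E11.5 and 410 and 506 at E14.5 (0.13 ± 0.21, adjusted p = 0.717, limma), with overlap. Ifitm1 read 78.4 and 72.2 at E11.5 and 59.4 and 15.9 at E14.5 (-0.95 ± 0.41, adjusted p = 0.122, limma). Of the 30 members tested it was the least apart at E11.5 and, with a ratio of 3.73, the most apart at E14.5.

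For 3 effectors, signal was high on E11.5 replicate 1 and no difference between the ages passed the test. Rsad2, or viperin, an enzyme that makes a chain-terminating nucleotide, read 186 on that array against 68.8, 76.6 and 64.6 on the other 3 (-0.62 ± 0.37, adjusted p = 0.268, limma). Its other 2 probe sets above the filter had smaller E11.5 gaps of 0.83 and 0.53 and age differences of -0.07 and 0.03. Ifi35, a leucine zipper protein that interferon induces, read 181 against 81.4, 72.2 and 42.8 (-0.98 ± 0.35, adjusted p = 0.0728, limma), while its other probe set above the filter had a gap of 0.26 and an age difference of -0.18. Ifi27 read 181 against 86.6, 72.8 and 94.1 (-0.54 ± 0.31, adjusted p = 0.254, limma), a ratio of 2.09 on the signal scale that stayed under 2-fold once the pseudocount was added. A second Ifi27 probe set read 119 and 19.6 at E11.5 and 6.28 and 7.54 at E14.5, an E11.5 gap of 2.03 and an age difference of -1.73 (adjusted p = 0.0579, limma), larger than on the brighter probe set. Ifit2, Xaf1 and Parp14 were dim, and their differences of 0.26 to 0.30 did not pass the test.

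The 7 members below the filter had mean signals of 4.05 to 25.2 and were not tested. They were the effectors Ifit1, Ifit3, Mx1, Mx2 and Gbp2 and the class I genes Psmb8 and Tap2, and 4 of the 7 were higher on E11.5 replicate 1. With them included, 9 of 37 members were at least 2-fold higher on that array (1.81% of the 18193 genes with a probe set) and 0 were 2-fold higher on replicate 2 (1.63%). Ifit1, which binds viral RNA caps and whose promoter holds 2 separate matches in the sequence above, read 58.9 on E11.5 replicate 1 against 15.4, 19.4 and 7.17 on the other arrays. A member could also pass the filter through 1 array: Psmb9 did so through E11.5 replicate 1, with a mean of 25.5 over the other 3.

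Of the 7 class I genes tested, 1 was lower at E14.5 (background 13.6% of all genes), 1 was higher (background 14.3%) and 5 had no call. B2m, the light chain of all class I molecules, read 1878 on E11.5 replicate 1, 812 on E11.5 replicate 2, and 1969 and 1955 at E14.5. On this probe set replicate 2 was the low array, and the other 3 were alike. Its difference of 0.66 ± 0.29 did not pass the test (adjusted p = 0.136, limma). A second B2m probe set gave a similar E11.5 gap, with 1735 and 702, but its E14.5 values of 1268 and 1124 lay between these (0.11, adjusted p = 0.845, limma). H2-D1, a class I heavy chain, read 984 and 439 at E11.5 and 645 and 704 at E14.5 (0.03 ± 0.29, adjusted p = 0.953, limma), so that both E14.5 values lay between the E11.5 values. Its 4 probe sets above the filter had E11.5 gaps of 1.13 to 1.34.

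H2-K1, the other heavy chain of the list, was lower at E14.5, with 1944 and 1482 at E11.5 and 1214 and 1003 at E14.5 (-0.62 ± 0.16, adjusted p = 0.0195, limma) and no overlap. Of its 4 probe sets above the filter, 3 were called lower (-0.62, -0.97 and -0.78) and 1 was not (-0.17, adjusted p = 0.757, limma). The probe sets used for H2-D1 and H2-K1 carry the manufacturer's suffix for probes that can bind related transcripts, so signal can be shared among class I heavy chains and their values are uncertain. Psmb10, a catalytic subunit of the immunoproteasome, was higher at E14.5: it read 147 and 123 at E11.5 and 311 and 260.4 at E14.5 (1.01 ± 0.19, adjusted p = 0.00334, limma). The 3 constitutive catalytic subunits that it and its partners replace, Psmb5, Psmb6 and Psmb7, were not called, with differences of -0.018 to 0.041. Tapbp, which bridges class I molecules to the peptide transporter, read 218 and 167 at E11.5 and 282 and 246 at E14.5 (0.44 ± 0.19, adjusted p = 0.125, limma). Tap1, a subunit of that transporter, and Psmb9 did not pass the test either.

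Each call between the ages was recomputed with 1 E11.5 array left out, since the E11.5 arrays differed. The lone E11.5 array is then assumed to vary like the E14.5 arrays. Against E11.5 replicate 2 alone, 8 members were lower (background 12.3%) and 5 were higher (background 14.7%), with a median difference of 0.04. The 8 were those named above without H2-K1 (-0.42, adjusted p = 0.0689, limma), and B2m (1.26 on its brightest probe set), H2-D1 (0.60) and Tapbp (0.62) joined Irf1 and Psmb10 as higher. Against E11.5 replicate 1 alone, 14 were lower (background 11.8%) and 1 was higher (background 12.7%), with a median of -0.78. Here H2-D1, Irf7, Rsad2, Ifi27 and Ifi35 joined the 9 as lower, and Irf1 no longer passed (0.54, adjusted p = 0.123, limma).

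H2-D1 was called in opposite directions by the 2 fits: 0.60 (adjusted p = 0.0152, limma) against replicate 2 and -0.54 (adjusted p = 0.0285, limma) against replicate 1. Lower in either fit were Trim25, Irf9, Usp18, Oasl2, Oas1a, Bst2, Ifitm3 and Rtp4, but by different amounts, for example Oasl2 by -1.64 or -3.13 and Rtp4 by -3.33 or -4.07. Psmb10 was higher in either fit, by 1.13 or 0.90. Leaving out an E14.5 array also changed some calls. H2-K1 and Irf1 also lost their calls without E14.5 replicate 2.

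**Figure D3:**
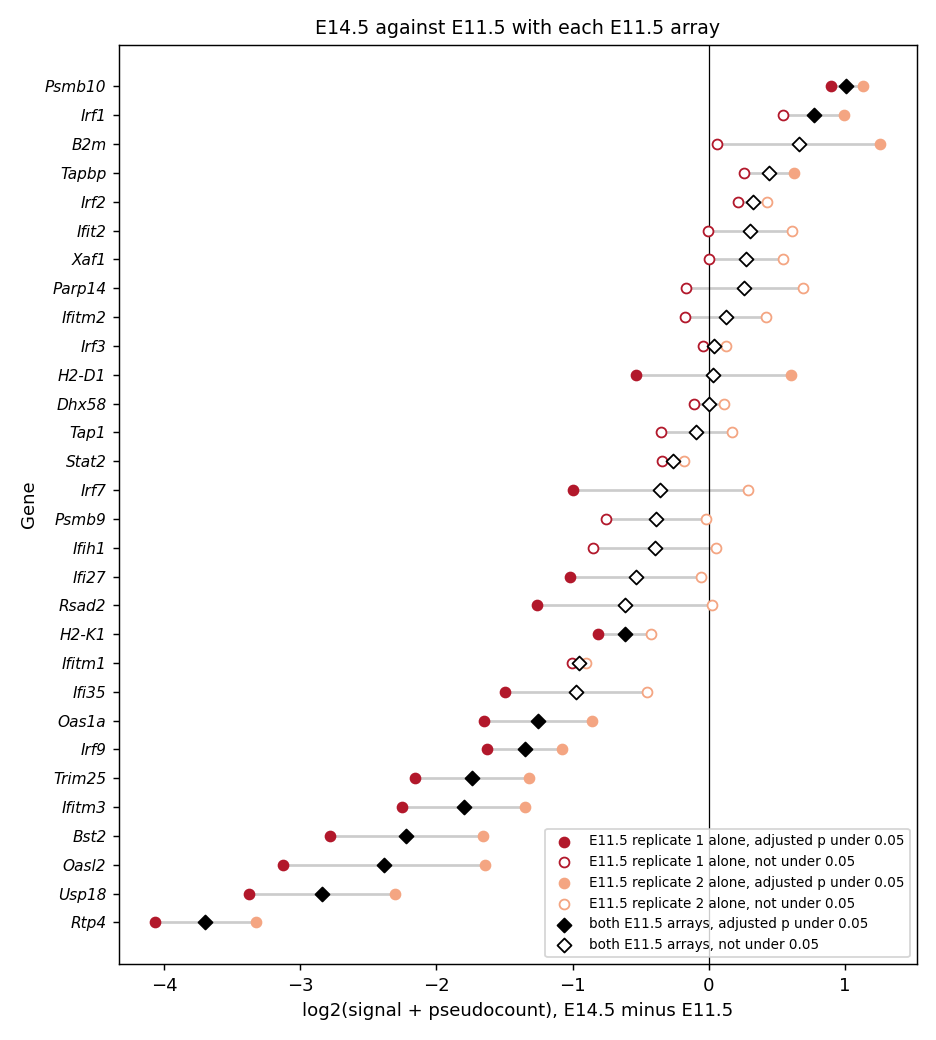
Log2 difference, E14.5 minus E11.5, of each member that passed the filter, from the limma fit with E11.5 replicate 1 left out and with E11.5 replicate 2 left out; diamonds show the fit with both arrays, and filled symbols had an adjusted p under 0.05 in that fit. The 8 members lower in both fits lie left of 0 at all symbols, and H2-D1 has filled circles on either side of 0.

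Upstream genes of the pathway lay on either side of 0 in the E11.5 gap, a difference from the members that was not tested. Of 13 genes for interferons, their receptors and JAK-STAT signalling, 9 passed the filter. Of these, 4 were higher at E14.5 and 1 lower, and 4 of 9 were higher on E11.5 replicate 1. The backgrounds for this list and the next were 14.3% of all genes higher, 13.6% lower and 54.6% higher on E11.5 replicate 1. The higher genes were Ifnar2, a chain of the type I receptor (0.90 ± 0.19, adjusted p = 0.00617, limma), the kinases Jak2 (0.74 ± 0.14) and Jak1 (0.73 ± 0.15), and Ifngr1, a chain of the interferon gamma receptor (0.67 ± 0.19, adjusted p = 0.0256, limma). Ptpn2, a phosphatase that acts on JAKs and STATs, was lower (-0.63 ± 0.15, adjusted p = 0.0137, limma). Of 9 sensing genes and other interferon regulatory factors, 3 were higher, namely Tlr3, a sensor of double-stranded RNA (1.31), Irf8 (1.09) and Mavs, the adaptor below the RNA sensors (0.74), 0 were lower, and 3 of 9 were higher on E11.5 replicate 1. Among ligands, Ifnb1 read 20.4 and 43.5 at E11.5 and 31.8 and 57.8 at E14.5, a low signal that was not higher on E11.5 replicate 1.

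A further list of interferon-induced genes, outside the members, also lay mostly above 0 in the E11.5 gap, with a smaller median than the members. It too was chosen with earlier results of these data known. Of its 15 genes above the filter, 13 were higher on E11.5 replicate 1 (background 54.6% of all genes), with a median gap of 0.27. At least 2-fold higher on that array were 2 of the 15 (background 0.811%). These were Eif2ak2, the kinase PKR that halts translation (247 and 102 on the younger cells, 132 and 77.3 on the older), and Lgals3bp (127 and 37.0 at E11.5, 54.5 and 51.6 at E14.5). The 2 genes higher on E11.5 replicate 2 were Uba7 (61.7 and 125 at E11.5, a gap of -0.89) and Herc6 (23.1 and 45.2, a gap of -0.69). Between the ages 5 of the 15 were lower (background 13.6% of all genes) and 1 was higher (background 14.3%). The lower ones with the largest differences were the partners Dtx3l (-1.44) and Parp9 (-1.33) and the GTPase Igtp (-1.07), and the higher one was Herc6 (1.57). Of 6 other class I genes and 2 MHC class II genes above the filter, 0 were called.

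**Figure D4:**
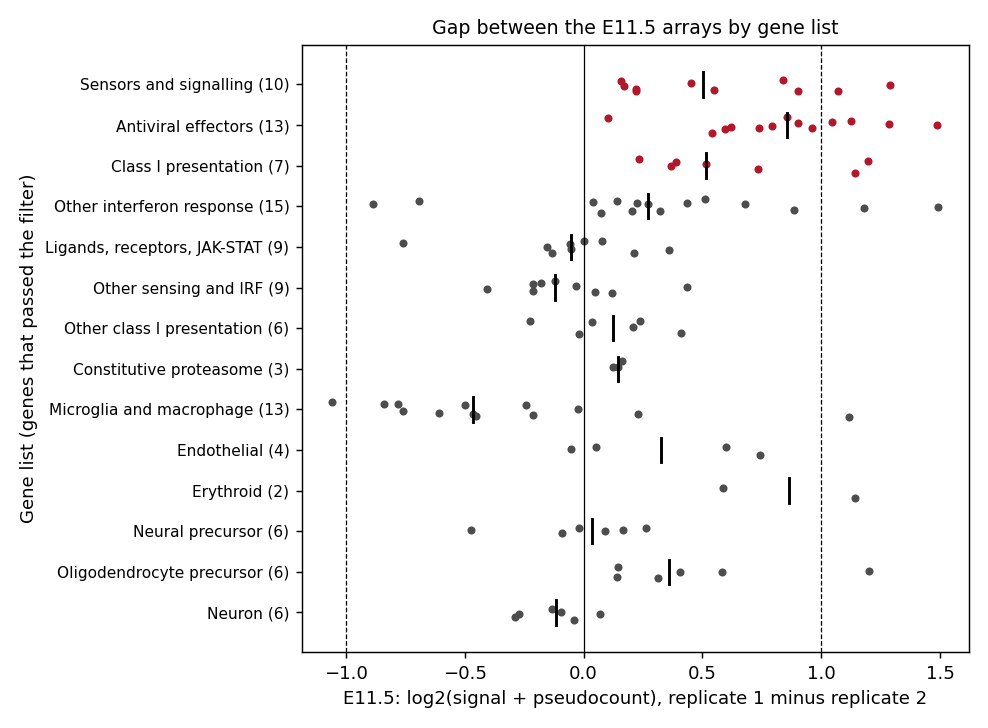
Gap between the E11.5 arrays, replicate 1 minus replicate 2 in log2 (scaled signal + 12.8), for genes above the filter. Shown are each role of the members and most of the pathway and cell type marker lists. The MHC class II, astrocyte and meningeal lists are not shown. Some marker genes were above the filter only through their E14.5 signal and were dim at E11.5. Each point is 1 gene, vertical bars are medians and dashed lines mark 2-fold. All points of the 3 member roles lie right of 0, with medians of 0.50, 0.86 and 0.52, and the receptor and sensing lists lie on either side of 0.

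Markers of other cell types that such cultures could hold were measured beside the members. The backgrounds for their counts were 14.3% of all genes higher at E14.5, 13.6% lower and 54.6% higher on E11.5 replicate 1. The summed signal of 15 microglia and macrophage markers was 361 and 533 at E11.5 and 2511 and 2388 at E14.5. Of the 13 above the filter, 11 were higher at E14.5 and 2 were higher on E11.5 replicate 1, and Aif1 and Itgam were below it. Several of the 13 were dim at E11.5 and passed through their E14.5 signal, for example C1qa (4.57 and 7.76 at E11.5), C1qb (30.4 and 7.16) and Fcgr3 (11.1 and 23.6). The order of their E11.5 arrays is therefore uncertain. Irf8, which microglia also express, was higher at E14.5 together with these markers. Endothelial markers summed to 406 and 335 at E11.5 and 358 and 428 at E14.5. Of these 10 markers, Plvap (2.23) and Ramp2 (1.10) were higher at E14.5, Egfl7 (-1.26) was lower, Kdr had no call, and Pecam1, Cdh5, Tie1, Esam, Cldn5 and Flt1 were below the filter. Of 4 lymphoid markers with a probe set, 0 passed it. Erythroid markers, like the members, were higher on E11.5 replicate 1, with sums of 806 and 357 at E11.5 and 31.7 and 32.9 at E14.5. Their E11.5 ratio of 2.26 rested mainly on Hbb-y, an embryonic globin (707 and 314 at E11.5, 23.1 and 1.46 at E14.5). Oligodendrocyte precursor markers were also higher on E11.5 replicate 1, in 6 of 6 genes, with sums of 860 and 622 at E11.5. Of these genes, Gpr17 (2.77 and 1.29 at E11.5) and Cspg4 (9.67 and 4.16) passed the filter only through their E14.5 signal. The order of their E11.5 arrays is therefore uncertain. At E14.5 the sums were 16720 and 19049, and all 6 genes were higher there (median difference 4.35). Astrocyte markers summed to 991 and 1121 at E11.5 and 13457 and 10063 at E14.5, and 6 of 6 were higher at E14.5 (median 3.05). Neuron markers were lower at E14.5, as the 9 members were, in 5 of 6 genes (median -3.43, Stmn2 -4.10, Tbr1 -4.03), with sums of 11175 and 11925 at E11.5 and 4029 and 3675 at E14.5. Of 5 meningeal markers above the filter, 3 were lower, Lum (-1.78), Col1a2 (-1.15) and Col3a1 (-0.83). All 6 meningeal markers summed to 1105 and 1138 at E11.5 and 604 and 536 at E14.5. The part of any of these cells in the members' values was not tested. In RNA from a whole culture, fewer cells of a type and less RNA per cell cannot be told apart.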

How the data were processed

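Values are the deposited intensities, 1 per probe set and array on a linear scale, which the authors made with GCOS, the Affymetrix analysis software (per the submitters' processing notes). Its settings, like its version, were not given in the sources used here. Detection calls were not used here. Groups and replicate numbers came from the sample titles. Of 45101 probe sets, 64 controls were left out, and 34945 were annotated with 1 gene.

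Each array was scaled to a common 2% trimmed mean (174). The filter kept 27022 probe sets whose scaled signal averaged at least 27.3, the 40th percentile, and they were tested as log2(signal + 12.8), the pseudocount being the 25th percentile. limma 3.58.1 in R 4.3.3 (lmFit, eBayes with a variance trend, 2 residual and 7.99 prior degrees of freedom) compared E14.5 with E11.5, with Benjamini-Hochberg adjustment over all 27022. The steps were tested on simulated data. The number of arrays limits the precision.

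The members and lists were chosen with earlier results of these data known. Values are given on every array for members that passed the test or had arrays of 1 age 2-fold apart, others are given by range or as examples of their role. Called genes with the largest differences are named for the pathway lists and for some marker lists. The other marker lists are given by counts or sums. Alternatives covered scaling, pseudocount, filter, variance trend, probe set choice, a replicate block and leaving out each array.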

Additional observations from a re-analysis of the deposited data

How the results depend on the processing

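The 9 lower members were called in every setting tried except that H2-K1 was lost with no filter on low signal, with no variance trend, and when either E11.5 replicate 1 or E14.5 replicate 2 was left out. With intensities as deposited, all genes shifted by a median of -0.69. Then 13 members were lower (17.3% of all genes) and 0 higher (1.9%, or 246 genes). On E11.5 replicate 1, 1 member and 31 genes were 2-fold higher, and 5 members were 2-fold apart at E14.5. The median difference and E11.5 gap of the members were -0.94 and 0.36. Signs then turned for Dhx58 (-0.62), Irf2 (-0.24), Irf3 (-0.71), Ifit2 (-0.26), Ifitm2 (-0.63), Xaf1 (-0.33), Parp14 (-0.31), Tapbp (-0.29), B2m (-0.11) and H2-D1 (-0.73). With the filter at the 60th percentile, 32 genes were 2-fold higher on E11.5 replicate 1, 0 members were apart at E14.5 and the median difference was -0.62. The median as pseudocount gave 4 members and 19 genes 2-fold higher on E11.5 replicate 1, 0 members apart at E14.5 and a median gap of 0.55; a pseudocount of 3.20 gave 207 genes, and Dhx58 -0.0027. No filter gave 1 higher member, Psmb10, against 7.71% of all genes, and Irf1 was lost. It also gave 329 genes on E11.5 replicate 1 and 2 members apart at E14.5. No variance trend gave 1 higher member (again Psmb10) and 1101 lower and 1150 higher genes. Averaged probe sets gave H2-D1 -0.23. Same-numbered arrays did not deviate together (r = 0.0041 over genes). A replicate block gave 10 lower members (14.9% of all genes) and 3 higher ones (15.6%). Leaving out 1 array gave 8 to 14 lower and 1 to 5 higher members, median differences of -0.78 to 0.040, and ranges that crossed 0 for Ifih1 (-0.85 to 0.053), Irf3 (-0.043 to 0.13), Irf7 (-0.9985 to 0.29), Ifit2 (-0.0069 to 0.61), Rsad2 (-1.26 to 0.027), Ifitm2 (-0.17 to 0.42), Parp14 (-0.17 to 0.69), Tap1 (-0.35 to 0.17), H2-D1 (-0.54 to 0.60), Dhx58 (-0.29 to 0.30) and Xaf1 (-0.086 to 0.64). The cause was not tested. Genes near background have only imprecise values at 2 arrays a group.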

Other observations

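The members were not the only genes higher on E11.5 replicate 1 than on E11.5 replicate 2. Among the 9923 genes in the brighter range (60th percentile and above), 32 (0.322%) were at least 2-fold higher on that array. Of these, 7 were members, 1 was Eif2ak2 of the further interferon list, and 24 were neither members nor on the pathway lists. The 24 included Hbb-y, Sox10 and C1qb of the erythroid, oligodendrocyte precursor and microglia marker lists. Among the 24, named after their values were seen, were the long nuclear RNA Malat1 (1280 and 284 at E11.5, 1742 and 1203 at E14.5), the RNA helicase Ddx6 and the embryonic globin Hbb-y. In the other direction 14 genes (0.141%) were 2-fold higher on E11.5 replicate 2, and 0 of them were members.

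Genes with a pattern over the 4 arrays like that of Oasl2, the member with the widest E11.5 gap, were searched outside the members. Genes with only provisional names were also left out. The 5 most alike among the rest were Flywch2, Shisa3, Ptgis, Fhl2 and Spint2. Their E11.5 gaps of 0.33 to 0.89 were smaller than the 1.49 of Oasl2. Likeness was the largest absolute difference of log2 values centred on each gene's mean, and it ran from 0.47 to 0.59 for these 5. With 4 arrays this is a description only.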
